A study of Mus musculus with 8 samples.

Results

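A pair of transcripts was followed in mouse neutrophil cultures with and without miR-223: Prok2 (prokineticin 2, also called Bv8; Affymetrix probe set ID.1419681_A_AT) and Stfa3 (stefin A3; probe set ID.1419709_AT). They are 2 of the 45101 probe sets measured. Both were chosen by their measured values on these arrays: each had a higher signal in mature neutrophils than in progenitors while the effect of losing miR-223 differed between the stages, in opposite directions. Their levels in the groups and the differences between groups are therefore given as descriptions with no test. The deposited table does not pair identifiers with genes, so both gene names rest on the assignment that came with this choice.

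The samples were cultured mouse bone marrow cells, with 2 arrays in each of 4 groups, and log2 signals of labelled RNA were measured. Day 8 miR-223 null and day 8 wild-type samples were mature neutrophils: progenitors were kept for 6 days in SILAC-IMDM medium with granulocyte colony-stimulating factor (G-CSF) and stem cell factor (SCF), then for 42 hours without SCF, and the sort took cells negative for c-Kit and positive for Gr-1. Day 4 miR-223 null and day 4 wild-type samples were kept for 4 days with both factors and the sort took cells positive for c-Kit and negative for Gr-1. All groups shared G-CSF. Day, sort gate and SCF withdrawal changed together and cannot be told apart. No source used here gives the strain, the kind of null allele or whether replicates came from separate animals or cultures, so the spread between replicates may be technical. Since identifiers have no gene names, markers of neutrophils, progenitors or other cell types could not be read from the arrays. A smaller share of expressing cells thus cannot be told apart from less RNA per cell. The level of miR-223 itself was not read from the arrays either.

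Prok2 encodes a small secreted ligand of the G protein-coupled receptors Prokr1 and Prokr2. In mice it is made by myeloid cells of the bone marrow, is raised there by G-CSF, and is known for mobilising myeloid cells and for promoting the growth of vessels in tumours. Stfa3 belongs to the stefin A group, which encodes cytosolic inhibitors of papain-like cysteine proteases such as several cathepsins. miR-223 is a microRNA of the myeloid lineage that pairs through its seed with sites in messenger RNAs and lowers their stability and translation, so its direct targets are generally higher when it is lost.

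RefSeq lists a 5p and a 3p mature strand of miR-223, and both come from the same locus. The 3p strand is shown, since every genotype comparison is about miR-223. It comes from RefSeq (GRCm38.p6), where it lies on the plus strand at chrX:96242884-96242905, and capitals mark its seed, bases 2 to 8.
mmu-miR-223-3p: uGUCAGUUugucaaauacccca
No messenger RNA sequence was used, so seed sites in either transcript were not searched.

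The regions around the start sites of both genes are shown because both transcripts were higher at day 8 in both genotypes while their start regions are unlike in base composition. Both are 300 bases long, 250 before to 50 after the RefSeq start (GRCm38.p6), and capitals mark every CG dinucleotide. That of Prok2 is chr6:99726343-99726642 and that of Stfa3 is chr16:36455343-36455642, both on the minus strand and written in the direction of transcription.
Prok2: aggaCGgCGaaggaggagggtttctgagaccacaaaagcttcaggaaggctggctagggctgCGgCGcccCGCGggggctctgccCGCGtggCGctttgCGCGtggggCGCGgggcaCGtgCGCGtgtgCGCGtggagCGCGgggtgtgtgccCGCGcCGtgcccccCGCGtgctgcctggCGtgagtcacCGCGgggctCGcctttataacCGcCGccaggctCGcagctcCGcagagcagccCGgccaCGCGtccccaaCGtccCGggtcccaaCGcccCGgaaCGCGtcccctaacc
Stfa3: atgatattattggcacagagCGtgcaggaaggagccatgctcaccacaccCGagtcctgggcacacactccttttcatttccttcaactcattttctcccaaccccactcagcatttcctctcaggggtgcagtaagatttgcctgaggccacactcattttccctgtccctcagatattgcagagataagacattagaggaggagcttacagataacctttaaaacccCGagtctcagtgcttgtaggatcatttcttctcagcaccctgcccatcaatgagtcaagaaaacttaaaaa
The Prok2 region held 42 CG dinucleotides and the Stfa3 region 3, beside a median of 7 over the 32851 promoter regions of the same length. G and C made up 73.7% of the Prok2 region and 46.7% of the Stfa3 region, with a median of 52.7% over all regions.

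Short motifs of 4 transcription factor families known from blood cells were searched on both strands of these regions. The PU.1 core GAGGAA was found once in the Stfa3 region, on the opposite strand between -135 and -130 from the start site, and 28.3% of all regions held it. The GATA motif AGATAA was found at -66 and -39 on the strand shown for Stfa3, and 11.2% of all regions held it at least once. The share of regions holding it repeatedly was not counted. The palindromic STAT motif TTCNNNGAA (in 8.30% of all regions) and the C/EBP motif TTGCNNAA (in 10.8%) were found in neither region, and the Prok2 region held none of the 4. No match overlapped another.

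Stfa3 has close relatives beside it in the genome. Prok2 spans chr6:99711299-99726392 and has 3 RefSeq transcripts with protein products. Stfa3 spans chr16:36450537-36455392 with 1 transcript. Within 500 kb of Stfa3 the annotation holds 10 genes of the stefin family, Stfa3 included. The nearest are Stfa2, at 42.2 kb, and Cstdc5, at 83.0 kb, and RefSeq also gives Stfa3 as a synonym of Stfa1, at 165.2 kb. Probe sequences were not used here, so it was not tested how far the Stfa3 probe set also reads these relatives.

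Prok2 was at its highest in wild-type mature neutrophils and much lower in null ones. Its log2 signal at day 8 was 6.03 and 6.48 in null cells, against 8.11 and 7.93 in wild-type cells. At day 4 it was 5.42 and 5.37 in null cells, against 5.30 and 5.04 in wild-type cells. All 4 day 4 values lay below 5.51, the median of the mean signals of all non-control probe sets and the value used here as the limit for testing, so Prok2 passed that limit through its day 8 values. On the day 4 arrays the lower quartile of all probe sets was 3.83 to 3.87 and the median 5.44 to 5.47, and with no detection calls it is not known whether Prok2 was above background there. The group means were 6.25 ± 0.32 in null and 8.02 ± 0.12 in wild type at day 8, and 5.39 ± 0.04 in null and 5.17 ± 0.18 in wild type at day 4 (SD, n = 2 each). From high to low the order was thus wild type at day 8, null at day 8, null at day 4 and wild type at day 4. The day 4 groups differed by 0.22 on the log2 scale, while the wild-type pair of that day alone was 0.26 apart, so this last step in the order was within the spread.

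Stfa3 was measured above that limit in progenitors and was more than 64-fold above its own progenitor level in mature neutrophils of both genotypes. Its log2 signal at day 8 was 13.74 and 13.85 in null cells, against 13.86 and 13.95 in wild-type cells. At day 4 it was 6.00 and 6.19 in null cells, against 7.27 and 7.17 in wild-type cells. The 2 genotypes thus lay close together at day 8 and well apart at day 4, with every value above 5.51. At day 8 only 0.17% to 0.23% of the probe sets on the null arrays and 0.15% to 0.17% on the wild-type arrays had a higher signal, and the array maxima were 14.86 to 15.06, so Stfa3 was near the top of the scale. Whether signals are compressed there was not tested. At day 4 the share of probe sets with a higher signal was 41.2% to 43.6% on the null arrays and 31.0% to 32.5% on the wild-type arrays. The limit of 5.51 is not a detection limit. With no detection calls it is not known how far the day 4 signals of Stfa3 lay above background. The means were 13.79 ± 0.08 in null and 13.91 ± 0.06 in wild type at day 8, and 6.10 ± 0.14 in null and 7.22 ± 0.06 in wild type at day 4 (SD, n = 2 each). From high to low the order was wild type at day 8, null at day 8, wild type at day 4 and null at day 4. The day 8 groups differed by 0.12, about as much as the null day 8 pair, which was 0.11 apart. The higher null array and the lower wild-type array of that day were at 13.85 and 13.86, so these neighbours in the order were within their spread of each other.

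**Figure D1:**
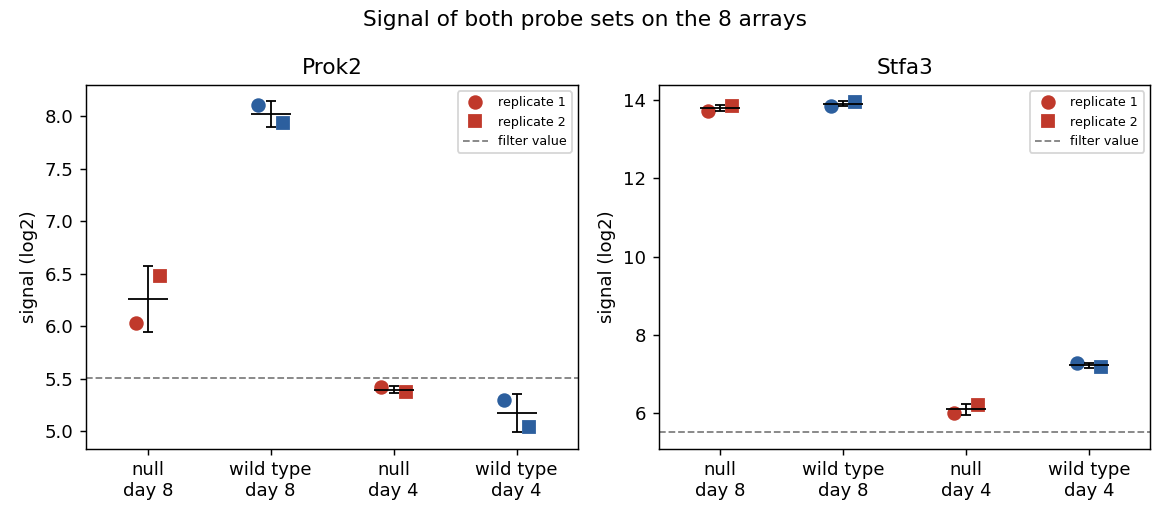
Log2 signal of the Prok2 (left) and Stfa3 (right) probe sets on each array (circle replicate 1, square replicate 2; red null, blue wild type), with the group mean as a long bar and its SD (n = 2) as the error bar, and the limit of 5.51 as a dashed line. The null arrays of Prok2 lie far below the wild-type arrays at day 8, at 6.03 and 6.48, while those of Stfa3 do so at day 4, at 6.00 and 6.19.

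The difference between the stages was set out in each genotype. Prok2 was 1.82-fold higher at day 8 than at day 4 in null cells (log2 difference 0.86, SE 0.16) and 7.20-fold higher in wild-type cells (2.85, SE 0.16). No source used here states how the authors corrected the background, and how far that correction bears on the low day 4 signals was not tested. Stfa3 was 207-fold higher at day 8 in null cells (7.70, SE 0.08) and 103-fold higher in wild-type cells (6.69, SE 0.08). Of the 22519 probe sets tested, none had a larger difference than Stfa3 in null cells, and 8 had a larger one in wild-type cells. Since the choice asked for a rise between the stages, these ranks are a description. The SE here is that of the limma fit, which draws on all 4 groups and on the other probe sets.

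The arrays of the 2 days did not overlap for either gene in either genotype. Among all probe sets tested, 44.4% were higher at day 8 without overlap in null cells and 42.6% in wild-type cells, and limma called 36% and 35.5% higher at an adjusted p below 0.05. Non-overlap between days was thus common on these arrays. The ratio of the 3' to the 5' control probe set of beta-actin, a measure of RNA integrity given here as a log2 difference, moved with the day. At day 8 it was 0.10 on both null arrays and 0.10 and 0.17 in wild type, and at day 4 it was 0.36 and 0.38 in null and 0.44 and 0.38 in wild type. For Gapdh it lay between -0.08 and 0.05 throughout. The part of RNA integrity in the differences of Prok2 and Stfa3 between days was not tested.

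**Figure D2:**
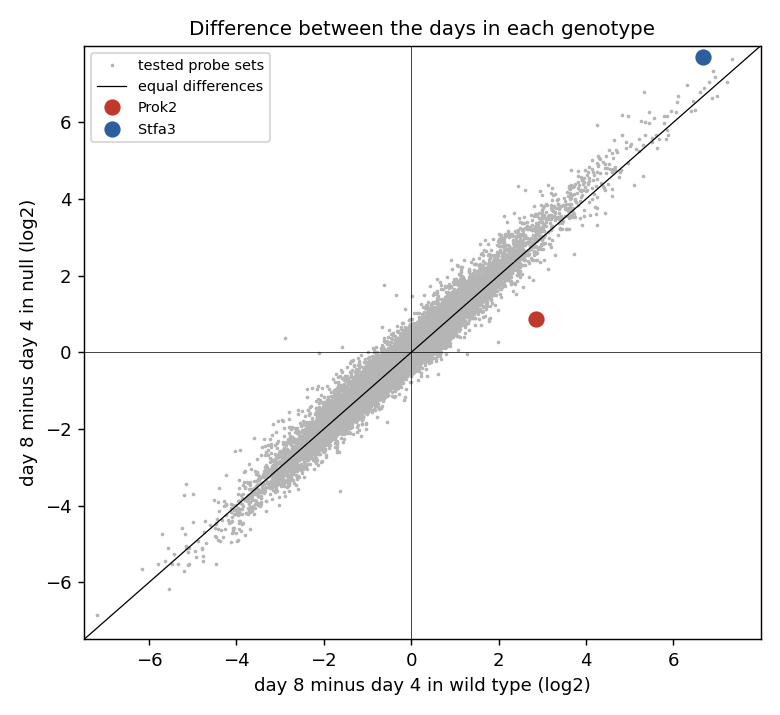
Log2 difference between day 8 and day 4 in null cells (vertical) against that in wild-type cells (horizontal) for the 22519 tested probe sets (grey), with Prok2 in red and Stfa3 in blue; the line marks equal differences. Prok2 (0.86 in null, 2.85 in wild type) lies below the line and apart from the cloud, and Stfa3 (7.70 and 6.69) lies above it at the upper end.

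Prok2 was set beside the 365 other tested probe sets whose wild-type difference between the days was within 0.5 of its own on the log2 scale, a window chosen after its values were seen. In null cells the difference of these 365 ranged from 1.52 to 4.36 with a median of 2.92, and that of Prok2, at 0.86, was below all of them. Their null effect at day 8 ran from -1.14 to 0.92 (median 0.02), against -1.76 for Prok2. Since Prok2 was chosen for this gap between the genotypes, its place at the end of both ranges is what the choice fixed and is given as a description. At day 4 the null effect of the 365 had a median of -0.18, with 274 below 0, against 0.22 for Prok2. The day 4 mean was below 5.51 for 74 of the 365 in null cells and, counted apart, for 66 in wild-type cells. That of Prok2 was below it in both.

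Stfa3 was likewise set beside the 16 other probe sets that were 64-fold or more higher at day 8 in both genotypes, a cut chosen after its values were seen. Their null effect at day 4 ran from -1.15 to 0.27 with a median of -0.23, and 12 of the 16 were below 0. Stfa3, at -1.13, was lower than 15 of them. Since Stfa3 was chosen for its null effects on the 2 days, this place follows from the choice and is given as a description. At day 8 the null effect of the 16 ran from -0.92 to 0.74 with a median of -0.05, and Stfa3, at -0.12, was inside that range. The day 4 mean was below 5.51 for 10 of the 16 in null cells and, counted apart, for 10 of the 16 in wild-type cells, while Stfa3 was above it in both.

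The genotypes were then compared within each day, the question being how each transcript responded to a missing miR-223 at each stage. At day 8 Prok2 was 3.40-fold lower in null cells (log2 difference -1.76, SE 0.16), and Stfa3 was 1.08-fold lower (-0.12, SE 0.08). At day 4 Prok2 was 1.17-fold higher in null cells (0.22, SE 0.16), and Stfa3 was 2.18-fold lower (-1.13, SE 0.08).

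The arrays of both genotypes were without overlap for both genes on both days, the small differences included. This was frequent: at day 8, 20.6% of all tested probe sets were lower in null cells without overlap, and at day 4 the share was 27.8% for lower and 21.1% for higher signals. Limma, at an adjusted p below 0.05, called 1.22% lower in null cells at day 8, and 2.14% lower and 0.582% higher at day 4. By size, 3 of the 22519 tested probe sets had a lower null effect at day 8 than Prok2, and Prok2 was the only 1 of these 4 whose day 4 null effect was within 0.5 of 0. At day 4, 33 probe sets, Stfa3 included, had a null effect at or below that of Stfa3, and in 21 of the 33 the day 8 null effect was within 0.5 of 0. The width of 0.5 was chosen after the values were seen. Both genes were chosen for these null effects, so their ranks follow from the choice and are given as descriptions. The day 4 values of Prok2 were all below 5.51, and how far this held its day 4 null effect near 0 was not tested.

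**Figure D3:**
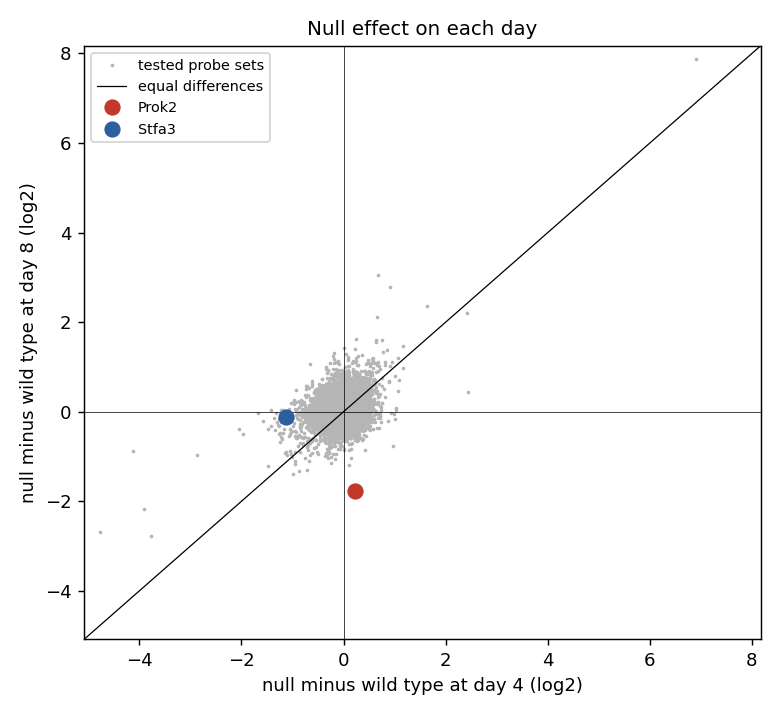
Log2 difference of null minus wild type at day 8 (vertical) against that at day 4 (horizontal) for the 22519 tested probe sets (grey), with Prok2 in red and Stfa3 in blue; the line marks an equal null effect on both days. Prok2 lies below the cloud at -1.76 on the vertical axis and near 0 on the horizontal one, and Stfa3 lies at the left edge of the cloud, at -1.13 on the horizontal axis and near 0 on the vertical one.

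The change in the null effect between the stages had opposite signs in the 2 genes. The null effect at day 8 minus that at day 4 was -1.99 for Prok2 (SE 0.23) and 1.01 for Stfa3 (SE 0.12). Prok2 had the lowest value of all 22519 tested probe sets, and 83 had a higher value than Stfa3. Over all tested probe sets limma called 0.111% lower and 1.55% higher in this comparison, and since these values chose both genes, nothing is read from that.

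For Prok2 the largest part of the spread came from 1 group. Its 2 null day 8 arrays were 0.45 apart, and the change of its null effect between the days was -1.76 without replicate 1 of that group and -2.21 without replicate 2. The SD around the group means over all 8 arrays was 0.19 for Prok2 and 0.09 for Stfa3, with a median of 0.11 over all tested probe sets. For Stfa3, leaving out each array in turn gave 0.91 to 1.11. With values below 5.51 raised to it, an alternative chosen after seeing the data, the day 4 null effect of Prok2 was 0 and the difference between the days was -1.76.

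**Figure D4:**
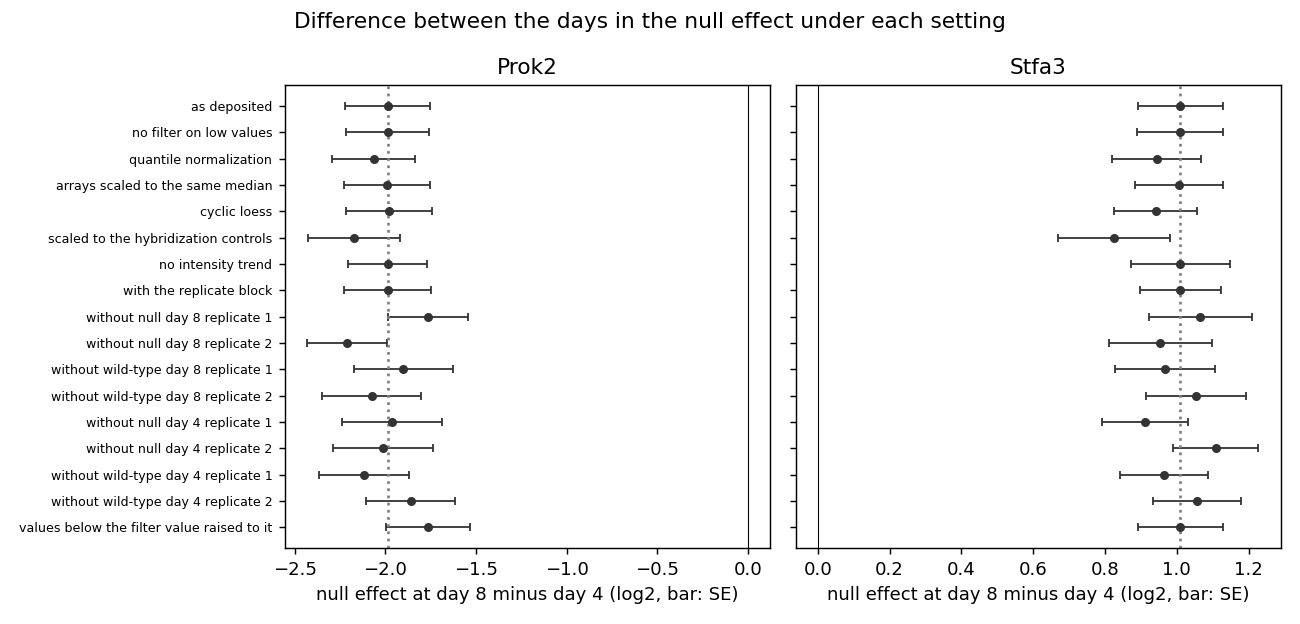
Null effect at day 8 minus that at day 4 (log2) of Prok2 (left) and Stfa3 (right), as deposited and under each alternative setting, with the SE of the fit as the error bar; the dotted line is the value as deposited. All points for Prok2 lie between -2.21 and -1.76 and all for Stfa3 between 0.83 and 1.11.

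The sign of the Stfa3 difference depended on the scale. Taken back to the linear scale, its signal was 14188 ± 777 in null and 15365 ± 644 in wild-type cells at day 8, and 68.5 ± 6.6 in null and 149 ± 6.7 in wild-type cells at day 4 (SD, n = 2 each). The null cells were thus at 92.3% of wild type at day 8 and at 45.9% at day 4. In signal units the null deficit was nevertheless larger at day 8 (-1178, SE 714) than at day 4 (-80.7, SE 6.6), and the difference between the days was -1097 (SE 714). That difference was thus positive on the log2 scale and negative on the linear scale. The negative linear value came from the day 8 gap, which was within the spread of the arrays, so its sign is uncertain.

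Prok2 kept its sign on both scales. Its linear signal was 77.3 ± 16.8 in null and 260 ± 22 in wild-type cells at day 8, and 42.0 ± 1.1 in null and 36.2 ± 4.5 in wild-type cells at day 4 (SD, n = 2 each). Null cells were at 29.7% of wild type at day 8 and at 116% at day 4. The difference of null from wild type was -183 (SE 19.6) at day 8 and 5.88 (SE 3.29) at day 4. The gain in signal between the stages was 35.2 in null and 224 in wild-type cells, so that null cells made 15.8% of the wild-type gain for Prok2, and 92.8% of it for Stfa3.

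**Figure D5:**
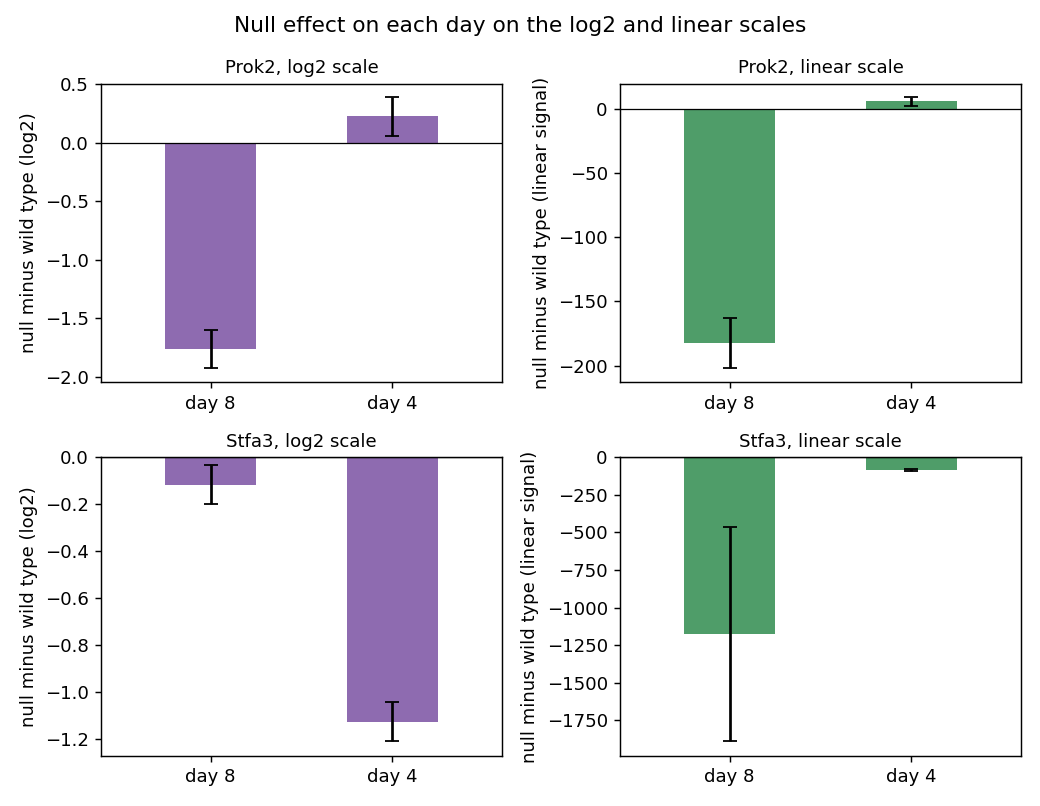
Null minus wild type at day 8 and day 4 for Prok2 (top) and Stfa3 (bottom), on the log2 scale (left, error bar SE of the fit) and on the linear signal scale (right, error bar SE from the SDs of 2 arrays per group). For Stfa3 the larger bar is at day 4 on the log2 scale (-1.13) and at day 8 on the linear scale (-1178), while for Prok2 it is at day 8 on both.

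The probe sets most like each gene over all 8 arrays were found by the root mean square difference of the values, each centred on its own mean. The nearest to Prok2, ID.1449491_AT, differed from it by 0.40 on the log2 scale, and the fifth by 0.43. The day 8 null effect of ID.1449491_AT was -1.14 and its day 4 null effect -0.25. Over the 4 next nearest to Prok2 the null effect at day 8 was -0.76, -0.70, -0.73 and -0.89. At day 4 it was -0.17, 0.17, 0.14 and -0.28. The nearest to Stfa3, ID.1452732_AT, differed from it by 0.30, and its null effect was -0.92 at day 8 and -1.15 at day 4. Over the 4 next nearest to Stfa3 the null effect was -0.10, -0.05, 0.23 and -0.10 at day 8, and -0.34, -0.37, -0.20 and -0.30 at day 4. Neither identifier has a gene name in the files.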

How the data were processed

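Total RNA from 8 samples was labelled with biotin and hybridised to arrays with 45101 probe sets. The authors deposited 1 log2 signal per probe set and array. Their log base was inferred from the range of values. Per the submitters' processing notes GCOS was used, and no source used here states its version, the probe summary, the background correction or the normalization. How far the background correction bears on the dim signals of Prok2 at day 4 and of Stfa3 in null cells at day 4 was not tested. Array medians lay between 5.44 and 5.50, so values were used as deposited.

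The 22519 non-control probe sets with a mean at or above the median (5.51) were fitted with limma 3.58.1 in R 4.3.3 (4 group means, intensity trend, 4 residual degrees of freedom), and both members passed. Calls used Benjamini-Hochberg adjusted p below 0.05, two-sided. With 2 arrays against 2, an exact permutation p cannot go below 0.333, and the number of arrays limits the precision. The fit was tested on simulated data. Linear signals are 2 to the power of the deposited value.

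The members, gene lists, motifs and settings were chosen with earlier results of these data known. The rule for named features allowed the 5 nearest probe sets per gene, of which 1 is named, since identifiers have no gene names here. For the same reason the 12 gene lists (other prokineticin, stefin, cystatin, cathepsin, G-CSF pathway, angiogenic and marker genes) could not be counted. Replicate numbers were not used as pairs in the main fit. The correlation of replicate differences between groups was -0.05 to 0.22 over the 6 pairs of groups, which cannot settle whether the arrays were paired.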

Additional observations from a re-analysis of the deposited data

Results flagged for a closer look

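The null effect of both genes differed between the days: by -1.99 on the log2 scale for Prok2 and by 1.01 for Stfa3. These differences are what the genes were chosen for, so they are repeated here as values and no test of them is given. On the linear scale that of Stfa3 was negative but uncertain (-1097, SE 714).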

How the results depend on the processing

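Under the 15 alternatives no difference of Prok2 or Stfa3 changed sign. Those to the filter, trend or block could not move one. Leaving out an array could move only differences using its group, and normalization could move all. Scaling to the hybridization controls moved the median of all probe sets to -0.35 and -0.21 for day 8 against day 4 in null and wild-type cells and to -0.15 for the difference between the days. Under it the differences of Stfa3 were -0.21 (null at day 8), -1.03 (null at day 4), 7.34 and 6.52 (day 8 against day 4 in null and wild type) and 0.83 (between the days), and Prok2 differed between the days by 0.51 in null cells. After quantile normalization Stfa3 gave -1.03 for null at day 4 and 6.83 for day 8 against day 4 in wild type. After cyclic loess its differences between days were 7.80 in null and 6.86 in wild-type cells. With dim values raised to the limit of 5.51, chosen after seeing the data, Prok2 gave 2.51 for day 8 against day 4 in wild type, -1.76 between the days and 0 for null at day 4. On the linear scale, also chosen then, the Stfa3 difference between the days turned to -1097 (SE 714), of uncertain sign. With the replicate block the values were -1.99 for Prok2 and 1.01 for Stfa3 between the days, and no count of calls moved by over 1.5 times.

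Leaving out each array in turn gave, for Prok2, -1.99 to -1.54 (null at day 8), 0.09 to 0.35 (null at day 4), 0.64 to 1.08 and 2.72 to 2.98 (day 8 against day 4 in null and wild type) and -2.21 to -1.76 (between the days). For Stfa3 these ranges were -0.17 to -0.06, -1.22 to -1.03, 7.60 to 7.79, 6.64 to 6.73 and 0.91 to 1.11.

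The counts of limma calls over all probe sets were 1195 for null against wild type at day 8, 613 at day 4, 17085 and 17374 for day 8 against day 4 in null and wild type, and 373 for the difference between the days. The last was 209 after quantile normalization, 124 scaled to the hybridization controls, 198 after cyclic loess and 129 without the intensity trend. The day 8 count was 694 scaled to the hybridization controls and 747 without the trend, and the day 4 count 222 without the trend. Without single arrays the counts ran from 353 to 1698 at day 8, from 128 to 1658 at day 4, from 15345 to 17418 and from 15780 to 17285 between the days in null and wild type, and from 47 to 890 for the difference between the days. The share of higher calls for null against wild type was 77.1% at day 8 and 21.4% at day 4 as deposited, against 47.0% and 51.9% scaled to the hybridization controls, and the day 4 share was 34.3% after cyclic loess. It was 47.4% for day 8 against day 4 in null cells and 93.3% for the difference between the days as deposited, against 29.9% and 49.2% under that scaling. None of the 5 probe sets nearest to either gene was among the 5 with the highest Pearson correlation over the 8 arrays. Counts for the gene lists were not run.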
